A study of Mus musculus with 52 samples.

Results

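Smooth muscle contractile genes were examined in mice that lack the long noncoding RNA Tug1. The 10 genes were taken by name, as the usual markers of contractile smooth muscle, out of 39144 genes listed in the deposited tables. They are Acta2 and Actg2 (smooth muscle actins), Myh11 (smooth muscle myosin heavy chain), Tagln, Cnn1 and Lmod1 (proteins of the thin filament), Mylk (myosin light chain kinase), Des (desmin, an intermediate filament), Synpo2 (an actin-bundling protein) and Myocd (myocardin, a transcriptional coactivator). All 10 were listed in each of the 8 tissues.

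Smooth muscle contracts when calcium, bound to calmodulin, activates myosin light chain kinase, which phosphorylates the regulatory light chain so that smooth muscle myosin can pull on actin. Calponin, transgelin and leiomodin bind or build the actin filaments, and desmin ties the contractile units to the cell's skeleton. Myocardin, acting with serum response factor at CArG boxes, switches on much of this programme. In the organs studied here the programme is known from blood vessel walls, the peritubular myoid cells of the testis, the prostatic stroma, the capsule and trabeculae of the spleen and the muscles of the iris and ciliary body, while cultured fibroblasts can take up part of it. Desmin, myocardin and Synpo2 are also used by striated muscle.

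RNA-seq of poly(A) RNA compared Tug1-/- with wild-type male mice in 6 organs (testes, prostate, liver, heart, spleen and eyes) and in cultured MEFs (embryonic fibroblasts, primary cells grown from littermate embryos and used at passage 2). Testes came from 4 wild-type, 4 Tug1-/- and 3 rescue mice, prostate from 3 wild-type and 2 Tug1-/- mice, and each other tissue from 3 of each. The brain means come from libraries outside the 52 samples of the series, from an earlier dataset, and their number was not used here. In the knockout, the Tug1 gene body is replaced by a LacZ cassette. Wild-type and Tug1-/- mice of the other 5 organs and the MEFs share a C57BL/6J/129S6 background, given as N3-C57BL/6J and without Neo. Testes donors were C57BL/6J/129S6 too, given as C57BL/6J, where the wild type is without Neo and the labels of the knockout and rescue name Neo and LacZ. The study's methods, in contrast, describe a colony chosen to be free of the neomycin gene. If the labels hold, absence of Tug1 and presence of Neo cannot be told apart in the testes. The rescue mice are Tug1-/- with the transgenes tg(Tug1) and CAGs-rtTA3, the latter expressing a doxycycline-dependent activator from a broadly active promoter, and they received doxycycline. Ages are not in the labels. Later library codes belong to 2 of the rescue testes libraries, 1 of the wild-type and 1 of the Tug1-/- libraries.

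The values are the authors' mean TPM of each group, a level scaled to transcript length and to the library's total, so genes can be compared within a group. No value of a single mouse was at hand, and the authors' own test results were not used, so no SD, no test and no replicate check is given here. Neither the order of the tissues nor any difference between genotypes has been set against the spread between mice. Differences are log2 ratios of 2 means after adding 0.1 TPM to each, and a gene is counted as past the limit when the means differ by 1.5-fold or more and at least one of them reaches 1 TPM. In bulk tissue, fewer smooth muscle cells and less RNA per cell cannot be told apart. The Tug1 level in the knockout was 2.21% of wild type in testes (4.0% in the rescue) and 0.0825% to 0.512% elsewhere. The 3 markers of each tissue summed, in their own wild-type tissue, to between 1949.9 TPM (spleen) and 118073.7 TPM (liver). Other tissues' genes were also present: Alb, the albumin of hepatocytes, was at 16.4 TPM in spleens of wild-type mice and at 0.0843 TPM in those of Tug1-/- mice. Depth, as the sum of the authors' mean normalized counts, was 17600000 reads per library in brain and 38700000 to 48300000 in the other tissues of the same table, and is unknown for testes.

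Because myocardin and serum response factor act at CArG boxes, the promoters of the members were searched on both strands for that motif, in RefSeq windows (GRCm38.p6) from 250 bases before to 50 bases from the start site. Windows were at hand for 6 members, Acta2, Cnn1, Lmod1, Des, Mylk and Synpo2, and not for Myh11, Tagln, Actg2 and Myocd. None of the 6 held a full box, against 1.64% of all 32544 windows. With so few windows and so low a share, finding none says little. Sequence outside the windows was not searched. Acta2 alone held near matches, in which 1 of the middle 6 bases is G or C. They are printed with 10 bases on each side and the match in capitals, since the Acta2 level in MEFs was the highest of any member in any tissue.
Acta2, match starting 84 bases before the start site, chr19:34255438-34255467, minus strand: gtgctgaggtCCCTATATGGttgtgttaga
Acta2, match starting 34 bases before the start site, chr19:34255388-34255417, minus strand: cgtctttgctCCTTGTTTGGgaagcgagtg
A box or a near match stands in 9.96% of all windows. The letters describe the promoter, and binding at these matches was not tested here.

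In wild type, the level of the contractile genes differed far more between tissues than any member differed between genotypes. The 10 members summed to 26014.9 TPM in MEFs, 5720.8 in prostate, 988.3 in heart, 622.1 in eyes, 578.3 in testes, 368.8 in spleen, 56.5 in brain and 27.4 in liver. MEFs and prostate thus stood above the other tissues, and brain and liver below them. The order between them rests on single genes, as Des made up 692.9 TPM of the heart sum and Actg2 440.4 TPM of the testes sum. By the median of the 10 members that order was spleen (25.4 TPM), eyes (19.1), heart (14.6) and testes (4.12). Prostate (403.0) was then above MEFs (213.7).

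**Figure D1:**
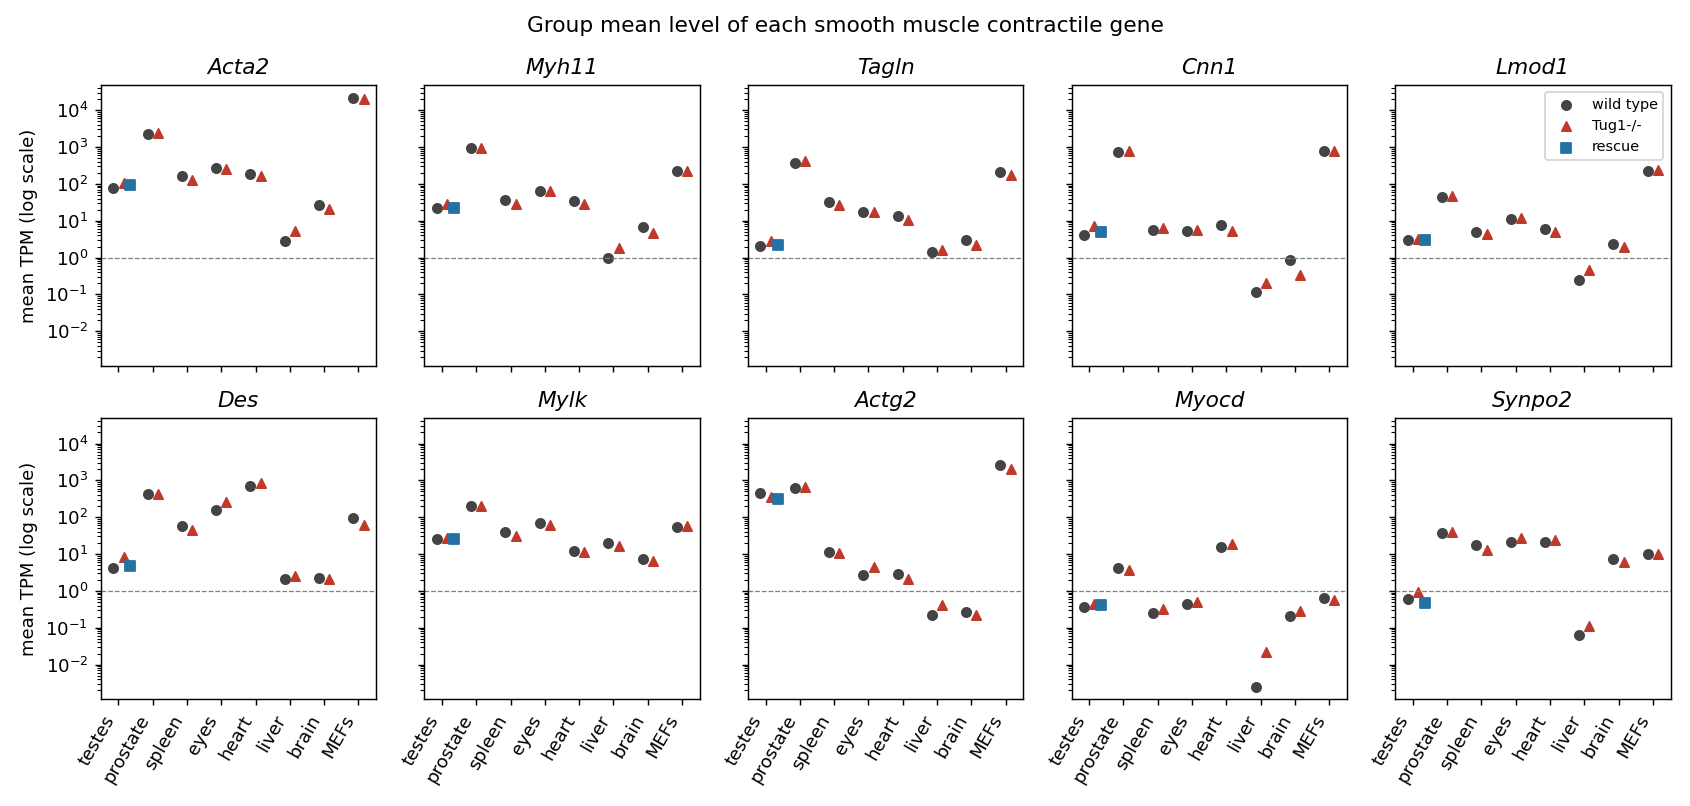
Authors' mean TPM (log axis) of each member in 8 tissues for wild type (circles), Tug1-/- (triangles) and, in testes, rescue (squares), with the dashed line at 1 TPM; no error bars can be drawn because only group means are held. Prostate and MEFs are the 2 highest tissues for Acta2, Myh11, Tagln, Cnn1, Lmod1 and Actg2, while Des and Myocd are highest in heart.

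Among the filament proteins, the actin Acta2 had 21816 TPM in wild-type MEFs, 2325 in prostate, 269 in eyes, 181 in heart, 161 in spleen, 76.7 in testes, 26.2 in brain and 2.74 in liver. The other smooth muscle actin, Actg2, which is typical of visceral muscle, had 2578 TPM in MEFs, 631 in prostate, 440 in testes, 11.7 in spleen and 2.9 or less in heart, eyes, brain and liver. Testes were the only tissue where Actg2 exceeded Acta2, at 5.74 times its level. In prostate the Actg2 level was 0.271 of that of Acta2, and in eyes 0.0101.

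The myosin heavy chain Myh11, which is close to exclusive to smooth muscle, was highest in prostate at 948 TPM, then 230.0 in MEFs, 65.0 in eyes, 36.2 in spleen, 34.3 in heart, 21.7 in testes, 6.91 in brain and 0.959 in liver. The RNA of the actin and the myosin stood in a narrow range of ratios in wild-type organs, with 2.45 (prostate) to 5.28 (heart) times as much Acta2 as Myh11. MEFs lay apart from this at 94.8 times.

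Transgelin (Tagln) and calponin (Cnn1), which bind actin filaments, had 377 and 726 TPM in prostate and 208 and 804 TPM in MEFs. In every other tissue Tagln was at 33.0 TPM (spleen) or less, and Cnn1 at 7.77 TPM (heart) or less. Lmod1, which nucleates actin filaments, had 219.7 TPM in MEFs, 43.1 in prostate, 11.1 in eyes and 0.251 in liver. The kinase Mylk varied least, 27.4-fold from 200.5 TPM in prostate to 7.31 TPM in brain, and was the one member whose lowest tissue was not liver. In liver Mylk, at 19.5 TPM, was the highest of the 10.

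The members shared with striated muscle ranked differently. Des had 693 TPM in heart, 429 in prostate and 159 in eyes, and Myocd had 15.5 TPM in heart against 4.12 in prostate and 0.652 or less in the other 6 tissues. Synpo2 had 37.4 TPM in prostate, 21.9 in heart, 21.3 in eyes and 0.59 in testes. The MEFs, highest for the actins, had only 9.91 TPM of Synpo2 and 0.652 TPM of Myocd.

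Across the 17 group means, the log2 levels of Acta2, Myh11, Tagln, Cnn1 and Lmod1 followed each other closely, with Pearson r from 0.89 to 0.99 over their 10 pairs. Over all 45 pairs of members the median r was 0.71 and the lowest 0.15 (Actg2 with Synpo2). Des went with Synpo2 (0.82) and Myocd (0.81) more than with Acta2 (0.64). These values are descriptions. The points share libraries and tissues, and the 2 genotypes of a tissue are close to one point.

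**Figure D2:**
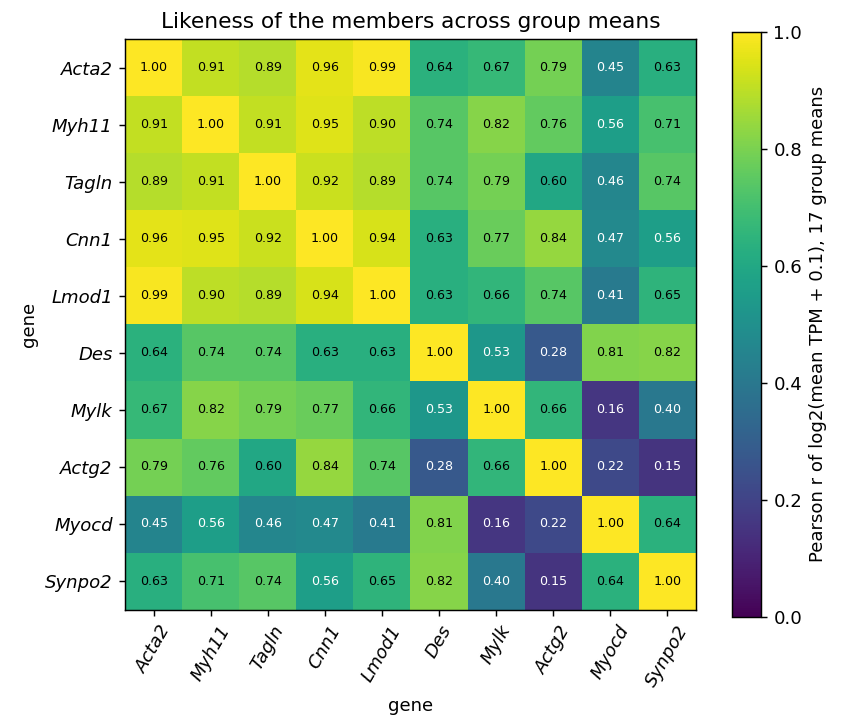
Pearson r between members over 17 group means of log2(mean TPM + 0.1), both axes listing the 10 genes. The block of Acta2, Myh11, Tagln, Cnn1 and Lmod1 holds r of 0.89 or more, and the lowest value is 0.15, between Actg2 and Synpo2.

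The non-member genes whose pattern over the 17 means was most like the average pattern of the members, among 18466 protein-coding genes, were Serf2 (r = 0.972), Arhgap28 (0.966), Erbb2 (0.957), Six5 (0.954), Myl9 (0.95), Kdelr3 (0.932), Il1rl2 (0.919), Wtip (0.917), Srpx (0.908) and Leng1 (0.906). Of these, Myl9 encodes the regulatory light chain that Mylk phosphorylates, with 3540 TPM in MEFs, 1123 in prostate, 90.5 in testes and 4.55 in liver. With Spearman correlation 6 of the 10 stayed in the list, and 5 did when brain was left out.

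The question put to the members by the design was whether their levels differ without Tug1. Of the 80 pairs of a member and a tissue, 67 reached 1 TPM in at least one genotype. In 31 of these the Tug1-/- mean was higher and in 36 lower. Of all genes, 27.7% (eyes) to 74.8% (heart) were higher, so this count mixes tissues with unlike general shifts. In 7 pairs the difference was past the 1.5-fold limit, 6 of them higher and 1 lower, where 4.56% (heart) to 10.5% (spleen) of all genes were past it, and in none of the 67 did it reach 2-fold. Ratios near 0 turned sign with the median of all genes set to 0 for Mylk in prostate, Acta2 and Myh11 in eyes and Synpo2 in MEFs. No member was past the limit in the same direction in more than 2 tissues.

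**Figure D3:**
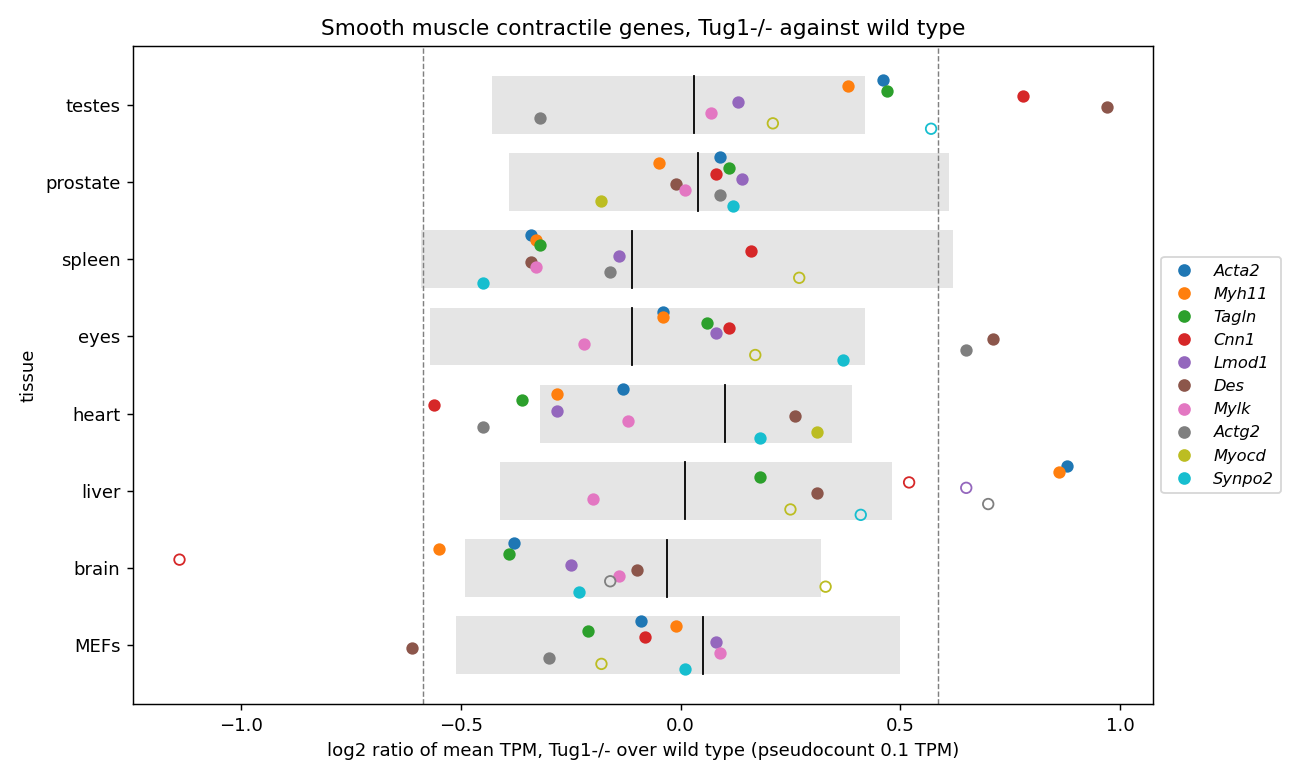
Log2 ratio of mean TPM, Tug1-/- over wild type, for each member (coloured points, open where both means are under 1 TPM) in each of 8 tissues, over the 5th to 95th percentile (grey bar) and median (black line) of all genes at 1 TPM or more; dashed lines mark 1.5-fold. Des and Cnn1 in testes, Des and Actg2 in eyes and Acta2 and Myh11 in liver lie past the line to the right, and Des in MEFs past it to the left.

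In testes, Cnn1 and Des were higher without Tug1. Cnn1 had 4.15 TPM in wild type, 7.19 in Tug1-/- and 5.07 in the rescue, a log2 ratio of 0.78 for knockout over wild type. Des had 4.09, 8.12 and 4.62 TPM, a log2 ratio of 0.97. These 2 of the 8 members at 1 TPM or more stand against 6.26% of all genes past the limit in this comparison, 2.75% higher. Acta2 (76.7, 105 and 90.8 TPM in wild type, knockout and rescue), Myh11 (21.7, 28.1 and 22.3) and Tagln (2.03, 2.86 and 2.25) were higher in the knockout by log2 ratios of 0.46, 0.38 and 0.47, within the limit. Lmod1 (2.94, 3.24 and 3.04) and Mylk (25.3, 26.6 and 25.7) were nearly level. Actg2, the most abundant member in testes, was the only one of the 8 with a lower knockout mean, with 440, 352 and 318 TPM and a log2 ratio of -0.32. With Acta2 higher and Actg2 lower, its excess over Acta2 was smaller, at 3.34 times in the knockout and 3.5 times in the rescue. Synpo2 (0.59, 0.926 and 0.461 TPM) and Myocd (0.375, 0.45 and 0.422 TPM) were under 1 TPM in all 3 groups. The median log2 ratio of the 8 was 0.42, and that of all genes 0.03, with 61.7% of all genes higher.

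The rescue comparisons use the same Tug1-/- or wild-type libraries, so the values are set side by side and not counted as separate evidence. Against the knockout, the rescue mean was lower for all 8 members and for 47.5% of all genes, with median log2 ratios of -0.27 and 0.01, and Des was past the limit at -0.80, where 4.65% of all genes were past it, 3.22% lower. Against wild type, none of the 8 was past the limit (7.93% of all genes were), and 7 of them were higher, as were 59.9% of all genes, or 6 once the median of all genes was set to 0, when Mylk turned to -0.01. Actg2 was the exception at -0.47. The rescue means of 7 members thus lay between wild type and knockout, while that of Actg2 lay further from wild type than the knockout did.

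**Figure D4:**
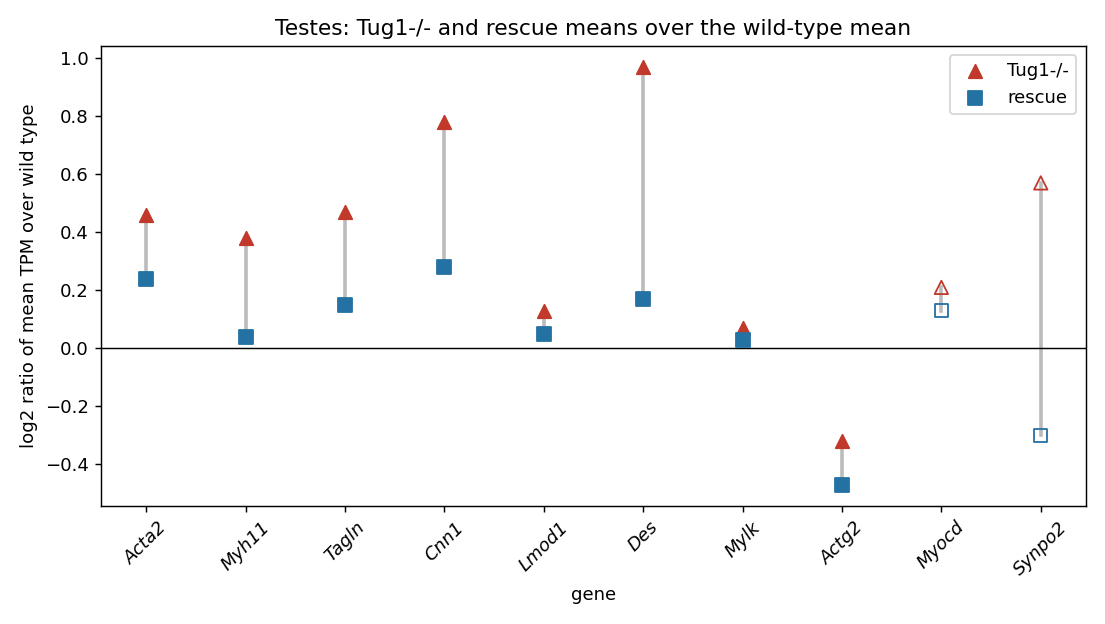
Log2 ratio of mean TPM over the wild-type mean in testes for Tug1-/- (triangles) and rescue (squares), for each member, open where all means are under 1 TPM; a line joins the 2. For 7 of the 8 filled genes the rescue lies between 0 and the knockout, and for Actg2 both lie under 0, the rescue lower at -0.47.

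Skeletal muscle genes were higher beside Des in testes. The 8 skeletal muscle markers summed to 5.6 TPM in wild type, 49.7 in Tug1-/- and 4.82 in the rescue, and all 7 of them at 1 TPM or more were past the limit. Tnnt3, the fast skeletal troponin T, had 0.113, 9.48 and 0.0899 TPM, and Acta1, the skeletal actin, had 0.38, 14.8 and 0.276 TPM. Among 12 further contractile apparatus genes, all were higher in the knockout with a median log2 ratio of 0.19, and Tpm2, a tropomyosin of both smooth and skeletal muscle, was past the limit with 9.4, 16.6 and 10.1 TPM. The 5 cardiac, 5 endothelial and 6 fibroblast markers at 1 TPM or more were all higher in the knockout too. Their median log2 ratios were 0.23, 0.11 and 0.15, with none past the limit. Of all genes in this comparison 61.7% were higher, with a median of 0.03, and 6.26% were past the limit. Of the 5 pericyte markers at 1 TPM or more, 2 were higher and 3 lower in the knockout, and Notch3, a receptor of pericytes and vascular smooth muscle, was past the limit and lower at 1.82 and 1.17 TPM. In the rescue all 5 at 1 TPM or more were lower than in the knockout (median -0.38), as were 47.5% of all genes. All 5 were also lower than in wild type (median -0.33), as were 40.1% of all genes. The endothelial and fibroblast medians for rescue against knockout were -0.07 and -0.06. The part of these cells' RNA in the members' values was not tested.

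In eyes, Des and Actg2 were higher without Tug1, 2 of 9 members at 1 TPM or more, against 7.87% of all genes past the limit, 3.19% higher. Des was at 159 TPM in wild type and at 261 in the knockout, and Actg2 had 2.72 and 4.33 TPM, log2 ratios of 0.71 and 0.65. The Actg2 values rest on a mean of 76.1 normalized reads per library, those of Des on 10957. With a pseudocount of 1 TPM, Actg2 was within the limit at 0.52, and a minimum of 5 TPM left it out. Acta2 (269 and 261 TPM) and Myh11 (65.0 and 63.4) were at -0.04 each, and at 0.06 and 0.07 once the median log2 ratio of all genes, -0.11 in eyes, was set to 0. Synpo2 had 21.3 and 27.5 TPM, and Mylk had the lowest ratio at -0.22, with 70.4 and 60.4 TPM.

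Here too the skeletal list lay beside Des. Its 8 markers summed to 6757 and 11887 TPM in wild type and knockout, and 7 of them were past the limit, all higher, with Acta1 at 1277 and 2464 TPM. The eye's external muscles are skeletal, and a dissected eye can carry them. Actc1, the cardiac actin, had 244 and 448 TPM, and Tpm2 had 550 and 926 TPM. The share of this muscle RNA in the Des and Synpo2 values was not tested.

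In heart, no member was past the limit, where 4.56% of all genes were, but the members split into 2 sets by direction. Des (693 and 832 TPM in wild type and Tug1-/-), Myocd (15.5 and 19.3) and Synpo2 (21.9 and 24.8), the 3 that cardiac muscle also uses, had higher knockout means with log2 ratios of 0.26, 0.31 and 0.18. The other 7 had lower ones, from -0.12 (Mylk, 12.1 and 11.1 TPM) to -0.56 (Cnn1, 7.77 and 5.22 TPM), with a median of -0.28. Acta2 had 181 and 165 TPM, Myh11 34.3 and 28.2, Tagln 13.8 and 10.7, Lmod1 5.89 and 4.85 and Actg2 2.9 and 2.09. The median of all genes in heart was 0.10, with 74.8% of them higher in the knockout, and with that set to 0 Cnn1 passes the limit. This grouping was made after the values were seen.

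Other markers in the same hearts also differed. The 7 cardiac markers summed to 25562 TPM in the controls and 29686 in the knockout, with 6 of them higher and a median log2 ratio of 0.12. Of the 8 skeletal markers, 6 were past the limit and lower, such as Tnnt3 at 31.5 and 0.763 TPM, and Myh4, a fast skeletal myosin, was at 4.24 TPM and listed at 0. The list's sum, 1324 and 1381 TPM, did not follow, being carried by Ckm, which heart muscle expresses. Cd79a, a B cell gene, had 12.5 and 5.91 TPM. The pericyte and endothelial markers had medians of -0.01 and 0.06. Their part in the members' values was not tested.

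**Figure D5:**
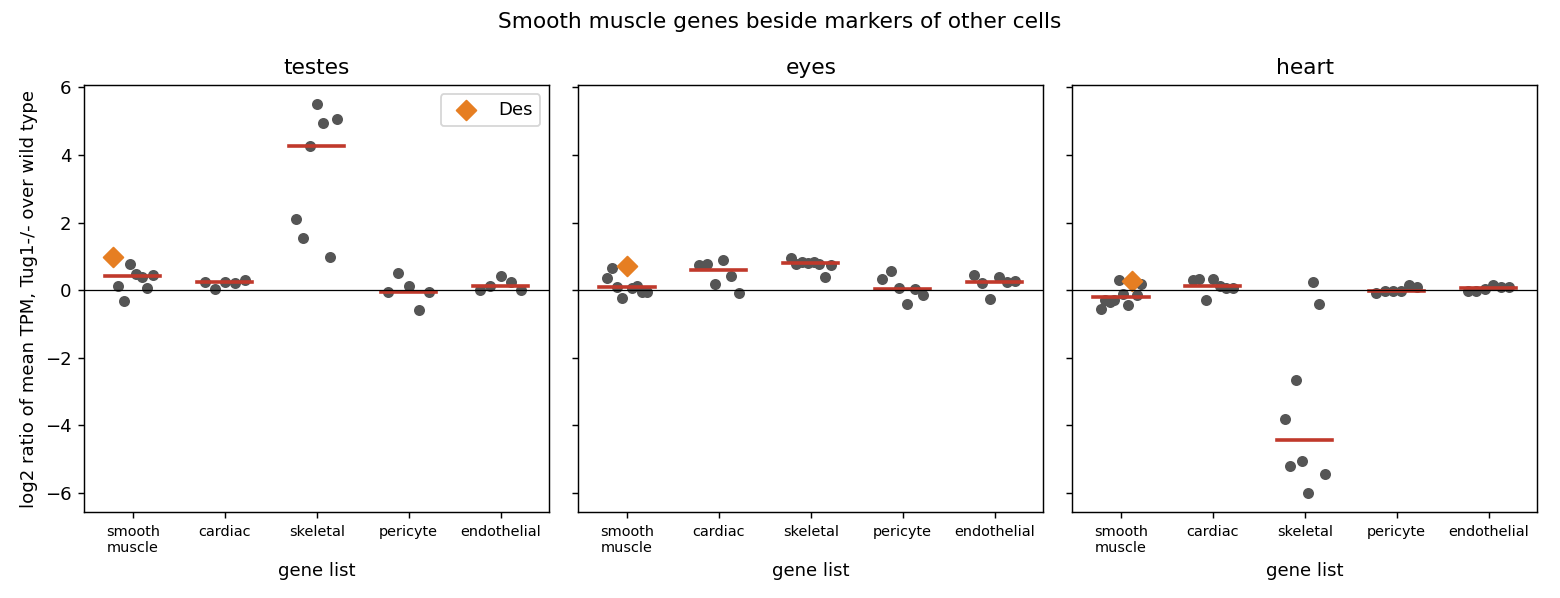
Log2 ratio of mean TPM, Tug1-/- over wild type, for the genes at 1 TPM or more of 5 lists (points; Des as a diamond; red bars are medians) in testes, eyes and heart. Skeletal markers are higher in testes and eyes, with medians of 4.26 and 0.79, and mostly lower in heart, with a median of -4.44. The medians of the pericyte markers are -0.05, 0.05 and -0.01, and those of the endothelial markers 0.11, 0.25 and 0.06.

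In liver, the lowest tissue for every member except Mylk, Acta2 and Myh11 were past the limit, 2 of the 5 members at 1 TPM or more, against 6.02% of all genes, 3.37% higher. Acta2 was at 2.74 TPM in wild type and at 5.11 in the knockout, and Myh11 had 0.959 and 1.82 TPM, log2 ratios of 0.88 and 0.86. They rest on means of 124.6 and 163.8 normalized reads per library, and Myh11, at 0.52, was within the limit with a pseudocount of 1 TPM and was left out by a minimum of 5 TPM. Tagln (1.43 and 1.64 TPM) and Des (2.07 and 2.59) were within the limit, and Mylk was lower, at 19.5 and 17 TPM. The light chain Myl9 had 4.55 and 7.07 TPM, and Tpm2, in the opposite direction, 6.06 and 2.65. Col3a1, a fibrillar collagen of fibroblasts and vessel walls, had 6.17 and 9.3 TPM. The 6 fibroblast markers, 5 of them higher and 1 lower with a median log2 ratio of 0.24, summed to 80.5 and 93.1 TPM. Of all genes in liver 52.7% were higher, with a median of 0.01. Of the 4 pericyte markers at 1 TPM or more 2 were higher and 2 lower (median 0.07), and of the 6 endothelial markers 5 were higher (median 0.18). Their part in the Acta2 and Myh11 values was not tested.

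In spleen, 8 of the 9 members at 1 TPM or more had lower knockout means, as had 70.2% of all genes, and none was past the limit, which 10.5% of all genes passed. Acta2 was at 161 TPM in wild type and at 128 in the knockout, Myh11 36.2 and 28.7, Tagln 33.0 and 26.5, Des 58.2 and 46.0 and Mylk 39.7 and 31.5, log2 ratios from -0.32 to -0.34. Lmod1 (4.96 and 4.49 TPM) and Actg2 (11.7 and 10.5 TPM) were nearer to 0, at -0.14 and -0.16. Synpo2 was lowest at -0.45 (17.7 and 12.9 TPM), and Cnn1 was the one higher member at 0.16 (5.7 and 6.36 TPM). The median was -0.33, and -0.22 with the spleen median of all genes, -0.11, set to 0. Of the other cells of the vessel wall and stroma, 5 of 5 pericyte markers, 6 of 6 endothelial and 5 of 6 fibroblast markers were lower too, with medians of -0.27, -0.25 and -0.44. The 3 markers of spleen itself, 1 higher and 2 lower, had a median of -0.31 and summed to 1949.9 and 1482.5 TPM. Pdgfrb, a pericyte and fibroblast receptor, had 37.3 and 24.4 TPM. Their part in the members' values was not tested.

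In brain all 7 members at 1 TPM or more had lower knockout means, as had 60.3% of all genes, with a median log2 ratio of -0.25 beside -0.03 for all genes, and none past the limit, against 6.14% of all genes. Of the 7, Myh11 was lowest at -0.55, with 6.91 and 4.67 TPM, and Acta2 had 26.2 and 20.2 TPM. Those 2 rest on means of 194.3 and 201.7 normalized reads per library, in the shallowest libraries of the table. Cnn1, under 1 TPM in both genotypes, had 0.879 and 0.345 TPM, a log2 ratio of -1.14 on a mean of 9.55 normalized reads. Endothelial markers were lower in 6 of 6 and pericyte markers in 5 of 6, with medians of -0.22 and -0.20, and their part was not tested.

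In prostate and MEFs, the tissues with the highest summed level of the members, most ratios were near 0. All 10 lay between -0.18 and 0.14 in prostate, with none past the limit (7.99% of all genes were), and Acta2 had 2325 and 2467 TPM. The median there was 0.08, beside 0.04 for all genes. In MEFs Des was past the limit and lower, 94.1 and 61.5 TPM with a log2 ratio of -0.61, 1 of 9 members at 1 TPM or more against 7.73% of all genes, 3.91% lower. Acta2 had 21816 and 20521 TPM, Myh11 230.0 and 227.7, and Actg2 2578 and 2094, log2 ratios of -0.09, -0.01 and -0.30. In the same MEFs the pericyte genes Rgs5 (81.3 and 40.3 TPM) and Kcnj8 (4.24 and 2.22 TPM) were past the limit and lower. In all, 5 of 6 pericyte markers (summed level 431.3 and 388.1 TPM, median log2 ratio -0.52) and 6 of 6 fibroblast markers (10006 and 9263 TPM, median -0.28) were lower, beside 40.4% of all genes. Their part in the Des value was not tested.

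Smtn, smoothelin, is a cytoskeletal protein of contractile smooth muscle that is not a member. It is a neighbour of Tug1 on chromosome 11. The paper lists it among the genes near Tug1 that were higher in knockout testes. In hybrid testes, the paper found Smtn raised only on the allele that carries the deletion. It had 4.22 TPM in wild-type, 38.1 in Tug1-/- and 35.8 in rescue testes, and in prostate 52.8 and 95.8, in eyes 32.9 and 58.4 and in heart 63.2 and 140.4 TPM in wild type and Tug1-/-. It was within the limit in spleen (13.2 and 11.6 TPM), liver (2.4 and 2.84), brain (5.04 and 7.08) and MEFs (92.3 and 114.8). Its log2 ratio over wild type in testes was 3.14 in the knockout and 3.05 in the rescue. No member at 1 TPM or more showed a difference of that size.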

How the data were processed

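Poly(A) RNA-seq libraries were, per the labels and the study's methods, aligned to mm10 with STAR and counted with featureCounts, and the genotypes were compared in each tissue with DESeq2 by the authors. The deposited tables hold the authors' mean TPM of each group and, outside testes, the authors' mean normalized count of each gene over both genotypes, a signal used here only as depth. Their other columns hold the authors' own fold changes, Wald statistics, p-values, adjusted p-values and significance labels, which were not used. The tables were assigned to tissues by their own content, since the labels pair testes and the other tissues with each other's table. The 6 F1 hybrid testes samples were not used.

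Log2 ratios of group means were computed with a pseudocount of 0.1 TPM, and a gene was counted at 1.5-fold or more with at least 1 TPM in either mean. This scale understates ratios of low genes. No test was possible on group means. The computation was tested on simulated data. Alternatives were pseudocounts of 0.01 and 1 TPM, a minimum of 5 TPM or none, a 2-fold limit, and centring on the median of all genes. Reads shared between genes are a minor concern for the members: at most 0.34% of 50-base windows of a member's transcripts (Myh11, with Myh9 and Myh10) occur in another gene's transcripts.

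The members and lists were chosen with earlier results of these data known. Named were all members, Smtn, Tug1, tissue markers, up to 4 genes of each list past the limit with the largest log2 ratios in a comparison, and the 10 genes most like the members. Outside this rule, Ckm was named because it carried a list's sum in heart. Ppp1r12b and Prkg1 were named after their values were seen. Python 3.11.15, numpy 2.4.6, pandas 2.3.3 and matplotlib 3.10.9 were used.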

Additional observations from a re-analysis of the deposited data

How the results depend on the processing

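Counts of members past the limit were compared as moved when they differed by over 1.5 times, and medians when they differed by 0.1 or more on the log2 scale. At a 2-fold limit the count was 0 in testes, eyes, liver, MEFs and rescue against knockout, where it had been 2, 2, 2, 1 and 1. With a pseudocount of 1 TPM, and likewise with a minimum of 5 TPM, it was 1 in eyes and 1 in liver. With no minimum it was 4 in liver, with a median of 0.46, 1 in brain and 2 for rescue against knockout. Centred on the median of all genes, the medians were -0.22 in spleen, 0.19 in eyes and -0.31 in heart, and the heart count was 1. Centring turned the sign of 5 ratios near 0: Mylk in prostate, Acta2 and Myh11 in eyes, Synpo2 in MEFs and Mylk for rescue against wild type. Of the 10 genes most like the members, 6 remained with Spearman correlation, 5 without brain and 8 with wild-type means alone. No median of the members reversed under these alternatives. No paired analysis was possible because the tables hold only group means and the results come from no test, and for the same reason no replicate could be left out in turn. Among the pairs past the limit outside testes, Actg2 in eyes (76.1 normalized reads per library) and Acta2 and Myh11 in liver (124.6 and 163.8) had the fewest reads, and Tagln in brain, within the limit, had 25.4.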

Other observations

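Of the 9 genes of a list for control of contraction (among them myosin phosphatase subunits, the cGMP-dependent kinase and ion channel subunits), none was past the 1.5-fold limit in any of the 8 tissues, where 4.56% to 10.5% of all genes were, and their median log2 ratio ran from -0.12 (spleen) to 0.13 (liver). The ratios farthest from 0 were both in MEFs, Ppp1r12b at 17.9 and 24.9 TPM and Prkg1 at 16.8 and 12.1 TPM in wild type and knockout, named after their values were seen. In brain all 9 and in spleen all 7 at 1 TPM or more had lower knockout means, beside 60.3% and 70.2% of all genes.

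Among 6 transcription factors of the programme, Foxf1 in spleen was the only one past the limit, at 3.32 TPM in wild type and 2.07 in the knockout. Over those of the 6 at 1 TPM or more, the median log2 ratio was -0.32 in spleen, -0.12 in eyes, -0.07 in brain, 0.05 in prostate, 0.09 in testes, 0.17 in MEFs, 0.21 in liver and 0.26 in heart. All of those at 1 TPM or more were higher in heart (5), testes (5) and MEFs (6), where 74.8%, 61.7% and 59.6% of all genes were higher, and all 6 were lower in spleen, where 70.2% of all genes were.

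Prostate had the fibroblast gene Lum at 12.3 TPM in wild type and 23.4 in the knockout, with all 6 fibroblast, all 6 pericyte and 5 of 6 endothelial markers higher there, beside 58.8% of all genes. The contractile members beside them had a median of 0.08.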
